A study of Mus musculus with 6 samples.

Results

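The genes described here are 10 markers by which alveolar macrophages, the resident macrophages of the lung's air spaces, are recognised: Car4, Siglecf, Marco, Itgax, Krt19, Krt79, Chil3, Fabp4, Fabp5 and Spp1. They were taken by symbol from the annotated expression table, where all 10 had a row among 16111 genes. The cells were not taken from lung. They were macrophages isolated from mouse fetal liver at E13.5 (strain C57BL/6 RCC) and grown for 5 weeks with 2% GM-CSF in serum-containing medium, and the non-adherent cells were sequenced. One group was wild-type and the other was deficient in Ahrr (AhRR-/- in the labels), which encodes the repressor of the aryl hydrocarbon receptor, with 3 libraries in each group, and both groups shared the fetal liver origin, the GM-CSF medium and the time in culture. The labels number the samples 1 to 3 within each genotype. They do not give litters or the part of Ahrr that was removed, so p-values measure the spread between these samples only.

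Alveolar macrophages form from fetal monocytes under GM-CSF and TGF-beta, and the nuclear receptor PPARG, which GM-CSF induces, is needed for their lipid-handling state. Cells of fetal liver grown in GM-CSF are used as a source of macrophages with alveolar features. The listed markers stand at different places in that state: surface proteins (Car4, Siglecf, Marco, Itgax), secreted proteins (Chil3, Spp1), fatty acid chaperones (Fabp4, Fabp5) and keratins (Krt19, Krt79). The comparison asks how these transcripts differ when the repressor of the aryl hydrocarbon receptor is missing.

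Where 3 values are given for a genotype they are replicates 1, 2 and 3 in that order. Libraries held 3556106 to 41668336 counts, and the shallowest was Ahrr-deficient replicate 1, in which 3 counts, the floor of detection, correspond to 0.844 CPM, the counts scaled to a library of 1000000 counts. Reads carry no molecular identifiers, so floors cover counting error only. Ahrr itself (ENSMUSG00000021575.16) was lower in the libraries labelled deficient, with 4.60, 4.29 and 5.32 CPM in wild-type replicates 1, 2 and 3 and 2.25, 2.57 and 1.21 CPM in the Ahrr-deficient ones (log2 fold change -1.21, SE 0.26, adjusted p 0.0151 in edgeR). Its reads did not disappear. Thinning to the smallest library total gave an adjusted p of 0.0675, and leaving out wild-type replicate 1 or 3 gave 0.0631 or 0.0502. The label of macrophages was met: all 10 listed macrophage markers were detected and tested, led by Lyz2 and Ctsd, with a summed level of 34692 to 41304 CPM across wild-type libraries against 25717 to 33965 CPM across Ahrr-deficient ones. In bulk libraries, fewer cells of a type and less RNA per cell cannot be told apart.

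The markers did not move as a block. Car4, Itgax and Spp1 rose in Ahrr-deficient cells, Krt19 and Fabp5 fell, and Siglecf, Marco, Chil3 and Fabp4 did not pass the test. Krt79 had too few reads to be tested. Of the 9 tested markers 5 passed (55.6%), 3 higher and 2 lower, where 19.6% of 11408 tested genes passed, 9.62% higher and 9.95% lower. The median log2 fold change of the 9 was -0.13, beside 0.0076 for all tested genes. The libraries of the genotypes did not overlap for 6 of the 9, against 36.6% of tested genes.

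**Figure D1:**
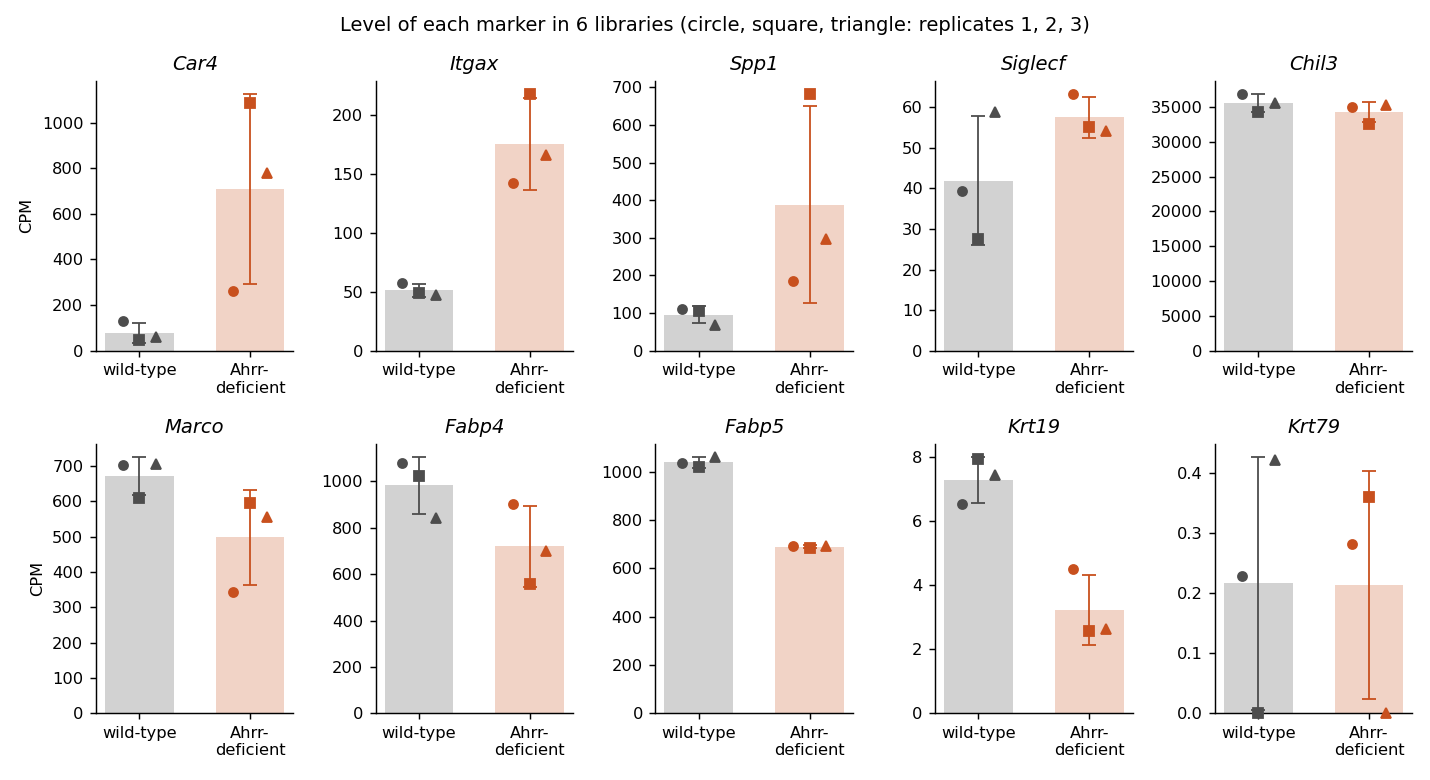
Level of each marker in counts scaled to 1000000 counts of the library (CPM, linear axes from 0). Bars are means, error lines are SD (n = 3) and points are libraries. Car4, Itgax and Spp1 stood higher in every Ahrr-deficient library, with replicate 1 (circle) the lowest of the 3, while Fabp5 lay near 690.2 CPM in all Ahrr-deficient libraries.

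Among the surface proteins Car4 differed most. Car4 (ENSMUSG00000000805.18, chromosome 11, 84957786 to 84966044, plus strand, GRCm38) encodes a carbonic anhydrase anchored to the cell membrane. It had 128, 45.4 and 61.6 CPM in wild-type replicates 1, 2 and 3 and 260.4, 1086 and 780.1 CPM in the Ahrr-deficient ones. The groups did not overlap, yet both were wide, and Ahrr-deficient replicate 1 lay well below the other two. The mean rose from 78.5 ± 44.0 to 709 ± 417 CPM (SD, n = 3), an 8.55-fold difference in the fit (log2 fold change 3.10, SE 0.51, adjusted p 0.00622 in edgeR). It passed under each of 14 alternative settings, with log2 fold changes from 2.65, without Ahrr-deficient replicate 2, to 3.64, without wild-type replicate 1.

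Itgax (ENSMUSG00000030789.9, chromosome 7, 128129547 to 128150657, plus strand) encodes CD11c, an integrin chain of alveolar macrophages that dendritic cells also carry. Its levels were 57.7, 49.4 and 46.9 CPM in the wild-type libraries against 143, 218 and 166 CPM without Ahrr. Here the wild-type libraries were tight and each Ahrr-deficient library was above all of them. The fitted log2 difference was 1.70 (SE 0.15, adjusted p 6.96e-04 in edgeR), or 3.25-fold. Of 10 dendritic cell markers, 5 had no row (Flt3, Ccr7, Dpp4, Cd209a and Siglech), in a table that holds features with at least 10 counts over the 6 libraries. The summed level of the list was 72.9 to 77.0 CPM across wild-type libraries against 80.4 to 101.7 CPM across Ahrr-deficient ones. Within it Clec9a was higher (54.5 to 81.2 CPM, adjusted p 0.0256 in edgeR) and Clec10a lower (14.9 ± 0.4 to 8.0 ± 0.4 CPM, adjusted p 0.00239 in edgeR), and the part of such cells in the Itgax difference was not tested.

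Siglecf (ENSMUSG00000039013.16, chromosome 7, 43351341 to 43359531, plus strand), a sialic acid binding lectin that separates alveolar macrophages from most other macrophages in flow cytometry, did not pass. It had 39.3, 27.5 and 58.8 CPM in the wild-type libraries against 63.3, 55.0 and 54.1 CPM without Ahrr. Wild-type replicate 3 lay inside the Ahrr-deficient range, and the spread was larger in wild-type (SD 15.9) than in Ahrr-deficient cells (SD 5.05 CPM, n = 3). The fitted log2 difference was 0.39 (SE 0.20, adjusted p 0.196 in edgeR). Without wild-type replicate 3 it was 0.65 with an adjusted p of 0.0346, and without wild-type replicate 2 it was 0.21 with an adjusted p of 0.445. In edgeR without a filter on low counts it was 0.39 with an adjusted p of 0.012. Siglecf also marks eosinophils, but 6 of 7 eosinophil markers had no row, among them Prg2, Epx and Ccr3, and the list summed to at most 0.708 CPM in any library.

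Marco (ENSMUSG00000026390.7, chromosome 1, 120474538 to 120505024, minus strand) encodes a scavenger receptor for particles and bacteria. Its levels were 703, 610.3 and 705 CPM in the wild-type libraries against 343, 596 and 555 CPM without Ahrr. All Ahrr-deficient values were below all wild-type values, by a narrow gap between wild-type replicate 2 and Ahrr-deficient replicate 2. The log2 fold change of -0.51 (SE 0.18) had an edgeR adjusted p of 0.0765. DESeq2 gave 0.0181, limma-voom 0.0437 and edgeR without a filter on low counts 0.0023. Without Ahrr-deficient replicate 1, the lowest library, the difference was smaller, at -0.32, with an edgeR adjusted p of 0.0304.

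Of the secreted proteins, Chil3 (ENSMUSG00000040809.10, chromosome 3, 106147554 to 106167564, minus strand), a chitinase-like lectin, was by far the most abundant marker. It had 36881, 34284 and 35600 CPM in the wild-type libraries against 35023, 32559 and 35249 CPM without Ahrr. That is 3.26% to 3.69% of the reads of a library. The groups overlapped, the coefficient of variation was 3.65% in wild-type and 4.35% in Ahrr-deficient cells, and the fitted log2 difference was -0.13 (SE 0.11, adjusted p 0.420 in edgeR). Chil3 did not pass under any of the 14 alternatives. Of the distinct 75-base stretches in its annotated transcripts 13.0% also occur in transcripts of Chil4 or Gm6522, so a part of its reads cannot be assigned by sequence alone, but both of these had low counts, with wild-type means of 11.3 and 6.59 CPM.

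Spp1 (ENSMUSG00000029304.14, chromosome 5, 104435118 to 104441050, plus strand) encodes osteopontin, a secreted glycoprotein of macrophages in inflamed and fibrotic tissue and of bone. It had 111, 106 and 69.1 CPM in the wild-type libraries against 185, 683 and 297 CPM without Ahrr. The groups did not overlap, and Ahrr-deficient replicate 2 was far above replicates 1 and 3. The mean rose from 95.4 ± 22.9 to 388 ± 261 CPM (SD, n = 3), the fit giving 1.94 on the log2 scale (SE 0.42, adjusted p 0.0151 in edgeR). Without Ahrr-deficient replicate 2 the log2 fold change was 1.26 and the call held, while without wild-type replicate 1 or 3 the adjusted p was 0.054 or 0.055. Osteoclast markers, which mark another Spp1-rich cell, summed to 224 to 312 CPM across wild-type libraries against 216 to 299 CPM across Ahrr-deficient ones. They were led by Acp5 and Nfatc1, neither of which passed, and Ocstamp and Calcr had no row. Of the 75-base stretches of Spp1, 8.55% are shared with Gm42793, an overlapping annotation on the same strand, which had means of 0.434 CPM in wild-type and 2.72 CPM in Ahrr-deficient cells and was too low to be tested.

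The sequences before the start sites of the 3 markers that rose are shown because these genes were all higher in Ahrr-deficient cells. They are 250 bases up to the start site as given by RefSeq (GRCm38.p6), written 5′ to 3′ on the strand of the gene, at chr11:84957504-84957753 for Car4, chr7:128129300-128129549 for Itgax and chr5:104434861-104435110 for the upstream one of the pair of starts listed for Spp1. Capitals mark a match to any of 4 motifs searched on both strands.
Car4: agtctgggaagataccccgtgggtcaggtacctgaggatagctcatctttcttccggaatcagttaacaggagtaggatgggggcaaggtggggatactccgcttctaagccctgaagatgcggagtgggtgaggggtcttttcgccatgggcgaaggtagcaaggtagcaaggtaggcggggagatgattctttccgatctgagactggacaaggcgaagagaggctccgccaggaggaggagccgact
Itgax: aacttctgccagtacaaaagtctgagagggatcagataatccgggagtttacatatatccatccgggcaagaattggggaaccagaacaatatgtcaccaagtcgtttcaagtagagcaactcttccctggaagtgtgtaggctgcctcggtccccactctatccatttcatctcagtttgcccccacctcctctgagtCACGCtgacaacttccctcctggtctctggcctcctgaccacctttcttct
Spp1: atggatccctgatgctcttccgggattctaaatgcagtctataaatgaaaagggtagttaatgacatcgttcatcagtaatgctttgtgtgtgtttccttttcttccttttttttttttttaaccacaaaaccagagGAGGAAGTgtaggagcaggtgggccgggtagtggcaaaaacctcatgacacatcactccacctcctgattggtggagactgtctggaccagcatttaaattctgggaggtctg
The motifs were GCGTG, the core of the element bound by the aryl hydrocarbon receptor, CACGTG, an E-box bound by Bhlhe40, AGGTCA, a half-site of nuclear receptors such as PPARG, and GAGGAAGT, a PU.1 site. Windows from 250 bases before to 50 bases after the start were listed for 7 markers, and Krt19, Fabp4 and Fabp5 had none. In their 8 windows GCGTG was found once, on the opposite strand of Itgax beginning at position -51, and GAGGAAGT once, in Spp1 beginning at -113. No match overlapped another, and CACGTG and AGGTCA were not found. Over 32817 windows of the same length, 32.4% held GCGTG, 7.15% CACGTG, 16.3% AGGTCA and 3.20% GAGGAAGT.

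The fatty acid chaperones Fabp4 and Fabp5, encoded by neighbouring paralogous genes on chromosome 3, bind fatty acids in the cytosol, and Fabp4 is a classic target of PPARG. Fabp5 (ENSMUSG00000027533.10, 10012548 to 10016607, plus strand) had 1035, 1021 and 1063 CPM in the wild-type libraries against 692, 684 and 694 CPM without Ahrr. In CPM it was the steadiest tested marker: the coefficient of variation was 2.09% in wild-type and 0.786% in Ahrr-deficient cells. The median over 10034 genes averaging 50 counts or more was 9.20% and 11.6%. CPM leave out the scaling factors of the fit (TMM, 0.904 to 1.04), so this rank holds for CPM only. In the fit the SE of Fabp5 was 0.10 and that of Chil3 0.11. Fabp5 fell by 0.67 on the log2 scale (SE 0.10, adjusted p 0.00452 in edgeR), or 1.59-fold lower, and passed in all 14 alternatives. Of its 75-base stretches 3.03% are shared with the pseudogenes Gm14328 and Gm6166, whose wild-type means were 2.01 and 4.48 CPM.

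Fabp4 (ENSMUSG00000062515.3, 10204088 to 10208576, minus strand) had 1081, 1024 and 843 CPM in the wild-type libraries against 903, 558 and 699.6 CPM without Ahrr. Ahrr-deficient replicate 1 lay inside the wild-type range. Its log2 fold change of -0.53 (SE 0.20) had an edgeR adjusted p of 0.0878, against 0.0232 with DESeq2. The edgeR adjusted p was 0.0102 without Ahrr-deficient replicate 1, where the difference was -0.74, and 0.0017 without a filter on low counts. The ratio of Fabp4 to Fabp5 within a library, which no scaling touches, was 1.05, 1.00 and 0.793 in the wild-type libraries against 1.30, 0.816 and 1.01 without Ahrr. The mean log2 ratio was -0.089 ± 0.215 and 0.034 ± 0.338 (SD, n = 3), a difference of 0.12 with an exact two-sided permutation p of 0.6, where 0.1 is the smallest this design allows. With 3 libraries a genotype this test cannot pass a threshold of 0.05, so it does not tell whether the pair responded differently, and the difference changed sign without wild-type replicate 3 or Ahrr-deficient replicate 1.

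The keratins were the lowest markers. Krt19 (ENSMUSG00000020911.14, chromosome 11, 100140810 to 100148665, minus strand), an intermediate filament protein mostly known from epithelia, had 143, 50 and 53 counts in the wild-type libraries against 16, 107 and 26 counts without Ahrr. In CPM these were 6.52, 7.94 and 7.43 against 4.50, 2.57 and 2.63. The groups did not overlap, and the fitted log2 difference was -1.403 (SE 0.24, adjusted p 0.00637 in edgeR), or 2.65-fold lower, with calls in all 14 alternatives. Thinning to the smallest library total gave -1.01 with an adjusted p of 0.0493. Krt79 (ENSMUSG00000061397.7, chromosome 15, 101929332 to 101940324, minus strand) had 5, 0, 3, 1, 15 and 0 counts in the same order. A count of 0 allows up to 0.476 CPM in wild-type replicate 2 and 0.303 CPM in Ahrr-deficient replicate 3, and no difference was detectable at this depth. Of 8 epithelial markers only Cdh1 had a row (20.9 ± 2.0 and 28.4 ± 15.4 CPM, SD, n = 3; adjusted p 0.289 in edgeR), and Epcam, Krt8, Krt18, Krt7, Krt5, Krt14 and Cldn4 had none.

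**Figure D2:**
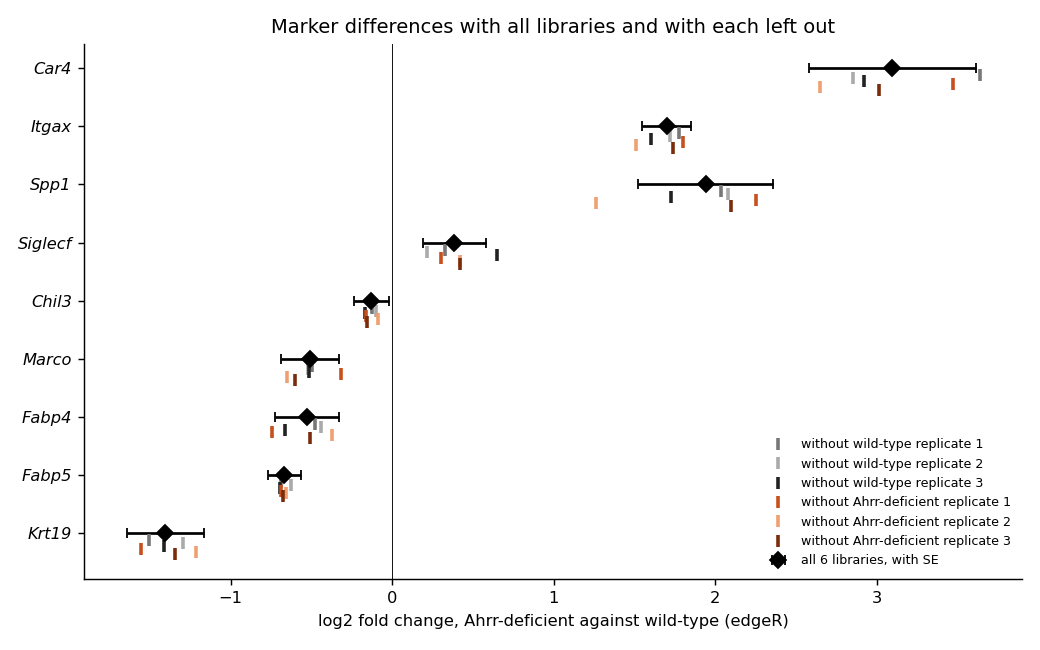
Log2 fold changes of the 9 tested markers, Ahrr-deficient against wild-type. Diamonds with bars are the fit to all 6 libraries with its SE, and ticks are the fits that each left out 1 library. No marker changed direction in any of these fits, and Spp1 moved most toward 0, to 1.26, without Ahrr-deficient replicate 2.

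Compared per length, in CPM per kilobase of merged exons (RPKM), the order in wild-type cells was Chil3 (21807 ± 796), Marco (349.5 ± 28.2), Fabp5 (291 ± 6.08), Fabp4 (219 ± 27.8), Spp1 (57.9 ± 13.9), Car4 (39.9 ± 22.4), Siglecf (15.0 ± 5.7), Itgax (10.7 ± 1.2), Krt19 (3.93 ± 0.39) and Krt79 (0.045 ± 0.044; SD, n = 3). Among neighbours in that order, the libraries of Spp1 and Car4 overlapped, as did those of Siglecf and Itgax. In Ahrr-deficient cells Car4 stood second at 361 ± 212 RPKM, but its range of 132 to 552 RPKM took in those of Marco (259 ± 70.4) and Fabp5 (193 ± 1.52) and overlapped those of Spp1 (236 ± 158) and Fabp4 (160.4 ± 38.6), so these 5 have no clear order. Itgax (36.6 ± 8.1 RPKM) then lay above Siglecf (20.6 ± 1.8 RPKM) without overlap. The lengths matter for the chaperones: the merged exons of Fabp4 cover 4489 bases, its whole gene, while its principal transcript has 896. With principal transcripts, a choice made after seeing the data, Fabp4 (1097 ± 139 RPKM) and Fabp5 (1053 ± 22.0 RPKM) ranked above Marco in wild-type cells.

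**Figure D3:**
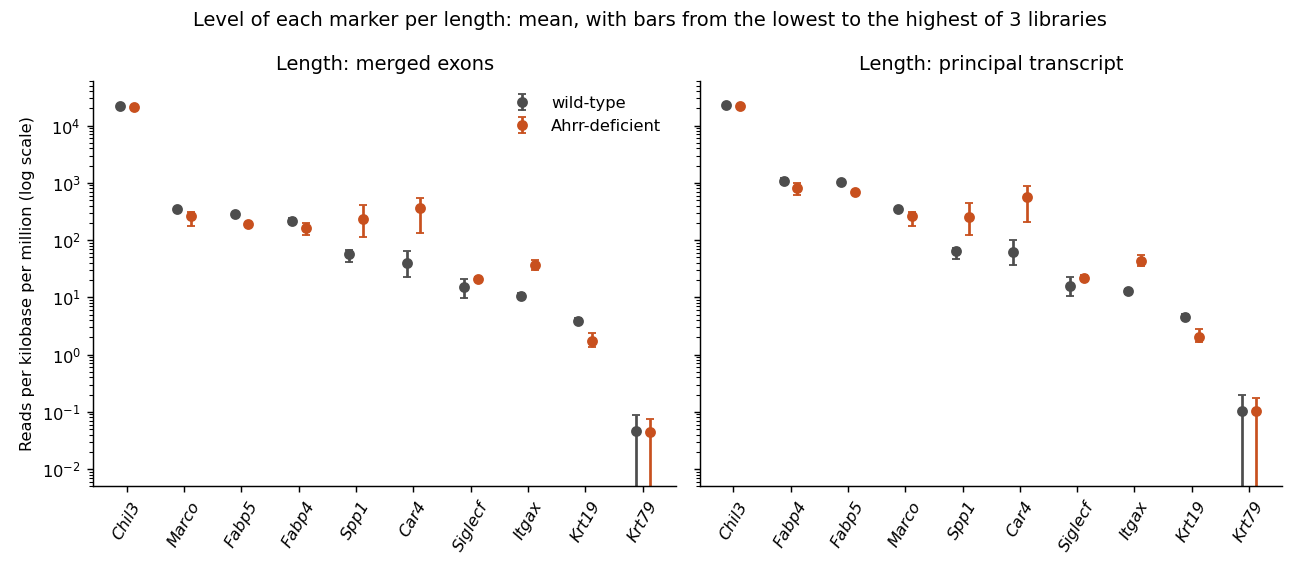
Level of each marker per length (RPKM, log scale), with lengths from merged exons (left) and from principal transcripts (right). Points are means and bars run from the lowest to the highest of 3 libraries, and those of Krt79 run off the axis because a library of each genotype had 0 counts. Chil3 exceeded every other marker in both genotypes, and Car4, at rank 6 in wild-type cells, stood at rank 2 by merged exons and 4 by principal transcripts in Ahrr-deficient cells.

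As a description of likeness, the root mean square difference between centred log2 CPM profiles over the 6 libraries was taken for the 36 pairs of tested markers. Fabp4 and Fabp5 were the closest pair (0.24) and Car4 and Krt19 the farthest (2.36). Among 10034 genes averaging 50 counts or more, the nearest to Car4 was Slc7a5, an amino acid transporter gene (0.35). Spp1 was nearest to Slc39a2 (0.15), a zinc transporter gene that is itself high in alveolar macrophages, and Itgax to Flrt3 (0.17). For Fabp4 it was Crem (0.069), for Fabp5 Tmco6 (0.048), for Marco Trmt112 (0.028), for Siglecf Camta1 (0.067), for Krt19 Gm5547 (0.074) and for Chil3 Fam20c (0.016).

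Other genes known for high expression in alveolar macrophages were counted from a list of 30, of which 29 had a row and were tested. In Ahrr-deficient cells 11 were higher, 4 were lower and 14 did not pass (51.7% called, against 19.6% of all tested genes, 9.62% higher and 9.95% lower). The median log2 fold change of the list was 0.28. The chemokine gene Ccl6 rose from 7237 ± 1528 to 16376 ± 2362 CPM (log2 fold change 1.11, SE 0.16, adjusted p 0.00371 in edgeR). Mrc1, the mannose receptor, rose by 0.59 (SE 0.11, adjusted p 0.00766 in edgeR) and Lpl, lipoprotein lipase, by 0.52 (SE 0.12, adjusted p 0.0173 in edgeR) on the log2 scale. Cd200r1, an inhibitory receptor (log2 fold change 0.57), Serpinb1a, an inhibitor of neutrophil proteases (1.29), and Slc39a2 (2.06) were higher too. Their edgeR adjusted p-values were 0.00411, 0.00665 and 0.0147. Slc39a2 had adjusted p-values of 0.0549 and 0.0517 without wild-type replicate 1 or 3. Lpl had 0.113, 0.0766 and 0.0801 without wild-type replicate 1, 2 or 3 and 0.0838 without Ahrr-deficient replicate 3.

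Plin2, Cidec, Siglec1 and Ear1 were the members of that list that fell. Plin2, a droplet coat protein, went from 1951 ± 32 to 830.2 ± 137.3 CPM (SD, n = 3; log2 fold change -1.31, SE 0.14, adjusted p 0.00158 in edgeR). Cidec, which enlarges droplets, went from 2.37 ± 0.55 to 0.997 ± 0.166 CPM (-1.34, SE 0.26, adjusted p 0.00946 in edgeR). Siglec1, or sialoadhesin, fell by 0.94 (SE 0.18, adjusted p 0.00843 in edgeR) on the log2 scale. Ear1, of the eosinophil-associated ribonuclease family, went from 2.93 ± 0.87 to 1.30 ± 0.40 CPM, with 6, 37 and 13 counts in the Ahrr-deficient libraries. By the fit it was lower, at -1.44 (SE 0.32, adjusted p 0.0173 in edgeR), and it belongs to a group of near-identical genes whose reads may be split. Of the same family, Ear6 was higher (1.13, SE 0.34, adjusted p 0.0447 in edgeR) and Ear2 did not pass (-0.61, SE 0.24, adjusted p 0.102 in edgeR). Cidec had adjusted p-values of 0.077 without wild-type replicate 1, 0.0524 without Ahrr-deficient replicate 2 and 0.0525 with the replicate number as a block. Ear1 had 0.0544 and 0.0615 without wild-type replicate 2 or 3 and 0.129 without Ahrr-deficient replicate 2. The number called in this list was 8 without any 1 of the wild-type libraries or without Ahrr-deficient replicate 2, and 21 without Ahrr-deficient replicate 1. The calls over all tested genes moved too. They were 694 of 11427, 965 of 11839 and 1107 of 11836 without wild-type replicate 1, 2 or 3. Without Ahrr-deficient replicate 2 they were 948 of 11412, and without Ahrr-deficient replicate 1 they were 3857 of 11837.

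The regulators of the alveolar state were a list of 26 genes of GM-CSF signalling, TGF-beta signalling and transcription factors, all tested. Of these 4 were higher, 3 lower and 19 did not pass (26.9% called, against 19.6% of all tested genes, 9.62% higher and 9.95% lower). Their median log2 fold change was -0.0033. Pparg rose from 80.0 ± 2.4 to 130.6 ± 20.9 CPM (log2 fold change 0.64, SE 0.11, adjusted p 0.00736 in edgeR). Bhlhe40, a repressor needed for alveolar macrophage self-renewal together with Bhlhe41, rose from 221 ± 33 to 618 ± 129 CPM (1.41, SE 0.16, adjusted p 0.00158 in edgeR). Irf4 (1.395, SE 0.13, adjusted p 8.97e-04 in edgeR) and Klf4 (0.68, SE 0.10, adjusted p 0.00425 in edgeR) were the others that rose.

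Maf, a transcription factor that restrains self-renewal of macrophages and is low in alveolar macrophages, fell from 3.64 ± 0.67 to 1.73 ± 0.57 CPM (SD, n = 3, log2 fold change -1.398, SE 0.29, adjusted p 0.0124 in edgeR). Without wild-type replicate 1 or Ahrr-deficient replicate 2 the adjusted p of Maf was 0.0628 or 0.0864. Irf8 fell by 0.44 (SE 0.07, adjusted p 0.00631 in edgeR) on the log2 scale. The receptors for the inducing signals did not pass: Csf2ra had a log2 fold change of 0.10 (SE 0.15), Csf2rb of -0.18 (SE 0.13), Tgfbr1 of 0.05 (SE 0.14) and Tgfbr2 of 0.11 (SE 0.10). Their edgeR adjusted p-values were 0.681, 0.349, 0.838 and 0.479. Bhlhe41 had 28.9 ± 7.1 and 39.6 ± 15.4 CPM (0.43, SE 0.28, adjusted p 0.298 in edgeR). Its log2 fold change was 0.011 without Ahrr-deficient replicate 2 and 0.67 without wild-type replicate 2, and the fit without a filter on low counts gave an adjusted p of 0.0065.

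**Figure D4:**
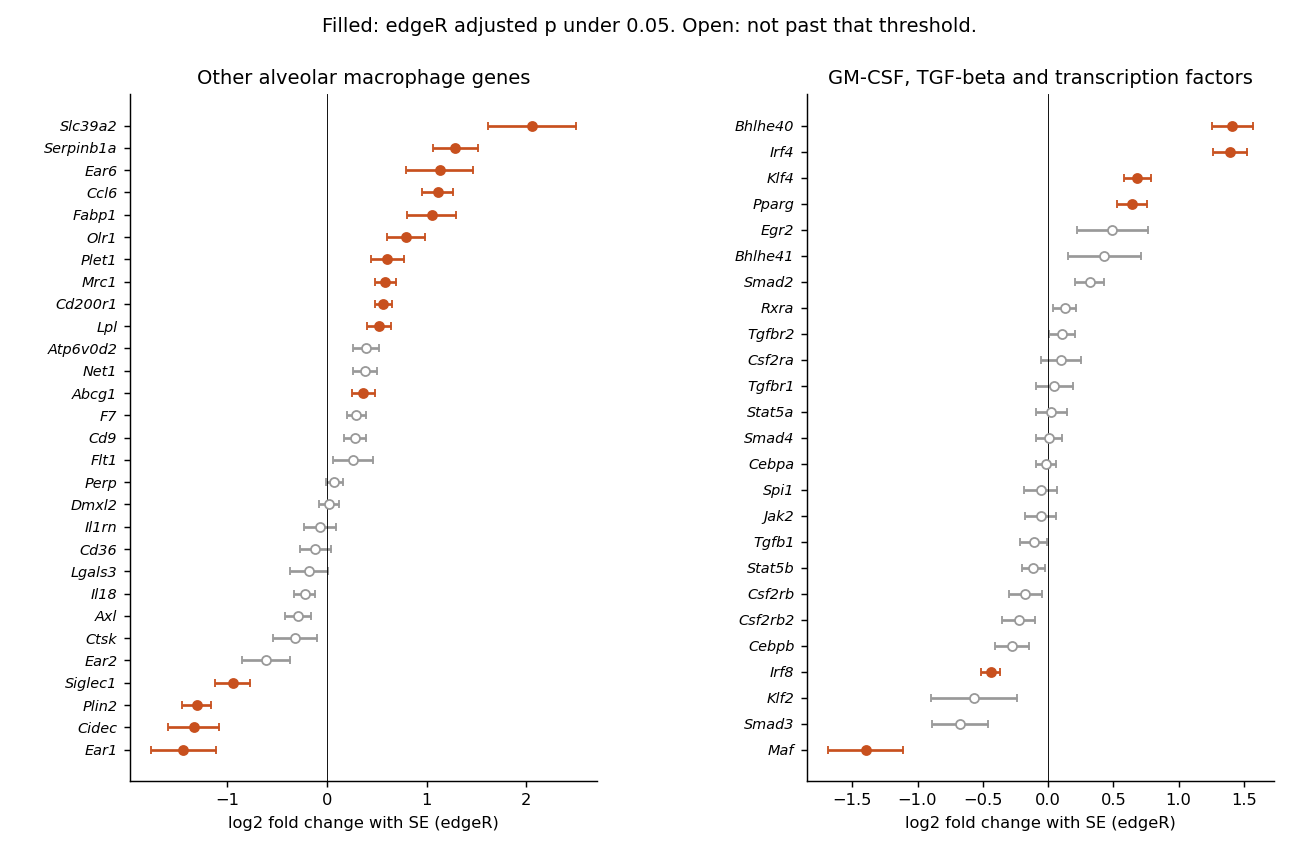
Log2 fold changes with SE of the other alveolar macrophage genes (left) and of 25 of the regulators (right), ordered by size. Filled points passed an edgeR adjusted p under 0.05. Of the genes plotted, Slc39a2 and Bhlhe40 stand at the top at 2.06 and 1.41, and Ear1 and Maf at the bottom at -1.44 and -1.398.

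Of the 10 general macrophage markers 7 did not pass, none rose and 3 fell (30.0% called, against 19.6% of all tested genes, 9.95% lower): Cd14 (log2 fold change -1.66, adjusted p 0.00329 in edgeR), Csf1r (-0.65, adjusted p 0.0304 in edgeR) and Ctsd (-0.46, adjusted p 0.0196 in edgeR). Lyz2, the most abundant, had 19958 ± 2669 and 15185 ± 3528 CPM (SD, n = 3; adjusted p 0.0926 in edgeR). Of the 10 log2 fold changes of these markers 9 were below 0 and 1 above, with a median of -0.38, beside 0.0076 for all tested genes. The part of these differences in those of the alveolar markers was not tested.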

How the data were processed

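RNA from 6 cultures was sequenced as single 75-base reads after a TruSeq preparation that started with 100 ng,, per the labels' protocols. The submitters' processing notes name CASAVA 1.8.2, fastp 0.20.0, STAR 2.7.10b, SAMtools 1.16.1, R 4.3.1, DESeq2 1.40.2 and the build mm10. The counting program, annotation and use of strand are not given in the sources used here.

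The authors deposited raw read counts for 53465 features without identifiers and a normalized signal with identifiers for 16111 genes. Each deposited signal value, multiplied by the median-of-ratios size factor of its library, was a whole read (100% of values, tolerance 1e-06), and the recovered reads equalled the raw counts of the features with at least 10 counts in total. Library totals are those of the raw table. Replicate libraries differed beyond sampling noise (chi-square per degree of freedom of at least 6.21), and each was counted once. Identifiers were matched without their version to GENCODE M21 (GRCm38), 16094 of 16111, for coordinates, lengths and shared 75-base stretches. With the version included 14479 matched. Of the markers only Krt79 had another version in GENCODE M21, so its gene model there may differ from the one counted. Promoter windows are RefSeq's.

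Counts were tested with edgeR 4.0.16 (quasi-likelihood, TMM, filterByExpr, genotype the only term) in R 4.3.3, two-sided, with Benjamini-Hochberg adjustment over 11408 genes and a threshold of 0.05. SE is the fold change over the root of F. The CPM and RPKM levels given use library totals and no TMM factor. Alternatives were RLE and upper-quartile scaling, no filter, DESeq2 1.42.0, a stricter filter (mean of 50 counts), limma-voom (limma 3.58.1), the replicate number as a block, thinning to the smallest total (1 draw) and each library left out. Likeness and the correlations of replicate deviations used log2 CPM with a prior count of 2, which do include the TMM factors. The markers, lists and the naming rule were chosen with earlier results of these data known. The rule names the 10 markers, Ahrr, up to 6 genes by smallest adjusted p in each direction of 2 lists, 7 regulators, the nearest gene of each marker and the 2 most abundant genes of each cell type list. Any other gene was named after its values were seen. One regulator is counted in its list and not reported here by name.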

Additional observations from a re-analysis of the deposited data

How the results depend on the processing

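Of 441 values recomputed for 32 named genes under 14 alternatives, 410 stayed the same in sign and call, 19 lost a call, 10 gained one and 2 turned sign. Car4, Itgax, Krt19 and Fabp5 passed in all 14. Over all tested genes 2232 passed, against 1390 with the replicate block and 1249 after thinning, and 694 to 3857 with 1 library left out, the lowest without wild-type replicate 1 and the highest without Ahrr-deficient replicate 1; each of the 6 libraries moved this count by over 1.5 times. In the main fit 5 markers passed, 2 of them lower. Without a filter on low counts 8 passed, 4 of them lower, where 2859 of all 24416 tested features passed. The SE of Car4 was 0.135 in that fit, against 0.51 in the main one, and the cause was not tested. With DESeq2 7 markers passed, 4 of them lower, where 1997 of all 11398 tested genes passed. Leaving out 1 library gave 4 to 7 markers (2 to 4 lower) and 8 to 21 of the other alveolar genes. The 4 markers came without wild-type replicate 1, where 694 of 11427 tested genes passed. The 7 markers came without Ahrr-deficient replicate 1, where 3857 of 11837 passed. Ahrr came to -1.22 on the log2 scale after thinning (adjusted p 0.0675 in edgeR) and to -1.69 to -1.0 with 1 library left out. In those fits Tgfbr1 ran from -0.12 to 0.19, Csf2ra from -3.9e-05 to 0.25 and the log2 ratio difference of Fabp4 and Fabp5 from -0.0522 to 0.286 (-8.6e-04 without wild-type replicate 3). The cause of these changes was not tested. The labels do not say whether the replicate numbers pair the libraries. Same-numbered deviations correlated at -0.17, 0.071 and 0.13 across genes. Wild-type replicates 1 and 3 each correlated best with Ahrr-deficient replicate 3 (0.16 and 0.13), and wild-type replicate 2 with Ahrr-deficient replicate 1 (0.084). Deviations from a mean of 3 libraries depend on each other, so these values cannot decide whether the libraries were paired. The block changed no marker's call. Krt79 and Krt19 are limited by depth in Ahrr-deficient replicate 1, with 1 and 16 counts.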

Other observations

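Kupffer cell genes, which mark the resident macrophages of liver, were partly present. Of 10 listed, 7 had a row, and Clec4f, Vsig4 and Folr2 had none. The list summed to 127 to 187 CPM in wild-type and 134 to 201 CPM in Ahrr-deficient libraries, and Clec1b (53.5 ± 3.8 and 79.8 ± 15.2 CPM, SD, n = 3; edgeR adjusted p 0.0523) and Adgre4 (52.3 ± 24.4 and 35.1 ± 25.3 CPM; edgeR adjusted p 0.257) were its most abundant genes. Nr1h3 (20.3 ± 1.8 to 12.6 ± 0.6 CPM) and Cd5l (4.08 ± 0.63 to 0.553 ± 0.485 CPM) fell, with log2 fold changes of -0.80 and -3.19 (edgeR adjusted p 0.0031 and 0.00361).

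Markers of other cell types were low or absent from the table. Hepatocyte markers summed to at most 1.13 CPM in any library, with no row for Alb, and the 8 mast cell and basophil markers had no row. The neutrophil list summed to 11.6 to 26.2 CPM in wild-type and 2.83 to 9.84 CPM in Ahrr-deficient libraries, most of it Cxcr2, with S100a8 next, while S100a9, Ly6g, Camp, Mpo and Elane had no row. The erythroid list held 13.49 to 23.0 against 2.86 to 4.96 CPM, led by Epor and with no globin row. Megakaryocyte genes, of which only Itga2b had a row, gave 2.698 to 3.01 against 1.21 to 1.97 CPM. Fibroblast and stellate cell genes gave 2.52 to 9.84 against 2.12 to 4.22 CPM, led by Pdgfra, and Col1a1 and Col3a1 had no row.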
